A study of Mus musculus with 12 samples.

Results

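The SMN complex was followed across 12 RNA-seq libraries made from mouse fibro-adipogenic progenitors (FAPs), mesenchymal cells of the muscle interstitium, in culture. Its 10 genes were Smn1, Gemin2, Ddx20 (the gene of Gemin3), Gemin4, Gemin5, Gemin6, Gemin7, Gemin8, Strap (the gene of Unrip) and Tgs1. They were taken by symbol from a fixed list and matched to 10 of the 55335 Ensembl gene IDs of the count tables. Of the 16597 genes with enough counts to be tested, 9 were SMN complex genes, and Gemin4 did not pass the filter on low counts.

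FAPs from fore- and hindlimb muscle had been sorted as living Lin- Vcam- Sca1+ cells and cultured with fetal bovine serum in alpha-MEM. The 4 groups held 3 libraries each. Smn1OE_K186R cultures received 1 µM 4-hydroxytamoxifen (4-OHT) for Bap1 deletion and a vector for the point-mutated K186R form of SMN. Smn1OE cultures received 4-OHT and a vector for unmutated SMN. Bap1KO cultures received 4-OHT alone, and WT cultures received ethanol. Per the protocols the constructs were human SMN, subcloned into pcDNA4-HisMAX and pLVX, and the labels do not say which backbone was used in the FAPs. The protocols name Rosa-CreER as the driver of the deletion, which acts in any cell, whereas the source labels name Prrx1Cre;Bap1f/f mice for the 3 groups given 4-OHT and wild-type mice for WT. No group had an empty vector, SMN without 4-OHT, or 4-OHT without deletion. An effect of SMN thus cannot be told apart from that of a vector. Nor can an effect of Bap1 loss be told apart from that of 4-OHT or, per the source labels, of mouse genotype. The age and sex of the animals were not given in the labels, nor was it said whether replicates came from separate animals, so p-values measure the spread between these samples.

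SMN binds Gemin2, and both sit at the core of a cytoplasmic machine that places a ring of Sm proteins on the small nuclear RNAs of the spliceosome. Gemin5 recognises the RNA, Ddx20 is a DEAD-box helicase that pairs with Gemin4, and Gemin6, Gemin7, Gemin8 and Unrip form an outer module. Tgs1 then trimethylates the cap of the RNA, a signal for its return to the nucleus. Humans carry the SMN1 and SMN2 genes and mice carry Smn1, and loss of SMN causes spinal muscular atrophy, a disease of motor neurons and muscle.

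Library totals lay between 51.2 and 68.2 M counts (M for 1e6). Bap1, the targeted gene, averaged 45.3 ± 3.15 counts per 1e6 counts (CPM, scaled by edgeR's TMM factors) in Smn1OE_K186R, 49.1 ± 1.4 in Smn1OE, 40.3 ± 1.74 in Bap1KO and 50.5 ± 1.32 in WT (SD, n = 3 each). Its log2 fold change in Bap1KO against WT was -0.32 (adjusted p = 0.0139), a call that was lost without Bap1KO replicate 2 (adjusted p = 0.0502) or 3 (0.0666) or WT replicate 3 (0.0689). Against Bap1KO, Bap1 was higher by 0.28 in Smn1OE (adjusted p = 0.00924), a call kept in all 13 alternative settings, and by 0.17 in Smn1OE_K186R (adjusted p = 0.081). Against WT it differed by -0.16 in Smn1OE_K186R (adjusted p = 0.0767) and by -0.04 in Smn1OE (adjusted p = 0.638), with no call in any alternative. No fall of Bap1 counts against WT was thus called in either SMN group, although both are labelled as Bap1-deleted. Counts over a whole gene include transcripts that lack a deleted exon, so they do not measure the deletion itself. The 10 FAP markers summed to 4213 to 5891 CPM in Smn1OE_K186R, 3553 to 5406 in Smn1OE, 9081 to 15920 in Bap1KO and 14270 to 20710 in WT. Pdgfra, the defining receptor of FAPs, averaged 22.8, 18, 33.8 and 90.9 CPM in those groups, and Lum averaged 0.216, 0.313, 2.93 and 5.63 CPM. Col1a1 made up most of the sums, at 3760, 3180, 9440 and 12700 CPM. Cd34 went the other way against Bap1KO, at 60.9, 65.3, 23.5 and 44.1 CPM, and Tcf7l2 averaged 29.8, 25.1, 37.4 and 24.7 CPM. Of the 10 FAP markers, 1 was higher and 6 lower in Smn1OE_K186R against Bap1KO, and 1 was higher and 7 lower in Smn1OE. In each SMN group against WT, 0 were higher and 8 lower. Of all genes tested, 16.1% were higher and 16.5% lower in Smn1OE_K186R against Bap1KO, and 15.8% and 17.7% in Smn1OE. Against WT the shares were 24% and 26.5% in Smn1OE_K186R, and 23.8% and 26.6% in Smn1OE. In bulk RNA, fewer FAPs and less of these RNAs per cell cannot be told apart, and the part of this in the differences of SMN complex genes was not tested. Satellite cell genes were at or near 0, with no read of Myf5, and the 6 myogenic markers summed to at most 4.81 CPM in any library. The 5 endothelial markers summed to at most 1.92 CPM and the 4 Schwann cell markers to at most 14.0 in any library. The 4 pericyte markers summed to 43.5 to 122 CPM in Smn1OE_K186R, 56.7 to 133 in Smn1OE, 30.4 to 52.0 in Bap1KO and 43.6 to 71.5 in WT. Most of that was Mcam, which averaged 85.2, 95.8, 34.8 and 46.9 CPM in those groups. The 5 macrophage markers summed to 20.4 to 28.5 CPM in Smn1OE_K186R, 20.8 to 26.3 in Smn1OE, 27.01 to 34.3 in Bap1KO and 21.4 to 27.7 in WT, and Adgre1 had at most 1 count in any library. Among them Cd68 averaged 8.94, 10.8, 4.86 and 3.12 CPM and Ptprc 0.105, 0.272, 0.00508 and 0.0103 CPM, whereas Csf1r averaged 9.04, 7.01, 16.9 and 11.5 CPM. The other pericyte markers, in the same order of groups, were Rgs5 at 1.96, 2.35, 0.742 and 1.62 CPM, Kcnj8 at 0.606, 0.991, 1.49 and 4.93, and Abcc9 at 0.658, 0.586, 0.574 and 1.77. Against Bap1KO, 2 of the 4 pericyte markers were higher and 0 lower in each SMN group, and of the macrophage markers 2 were higher and 2 lower. Set against WT, 2 pericyte markers were lower in each SMN group, with 0 higher in Smn1OE_K186R and 1 in Smn1OE. Of the macrophage markers 2 were higher and 1 lower there in each. The shares of all genes are those given with the FAP markers. The part of these markers in the differences of SMN complex genes was not tested. The SMN groups and the other groups also differed in sex-linked RNA. Xist averaged 0.0425 CPM in Smn1OE_K186R and 0.0163 in Smn1OE, against 252 in Bap1KO and 228 in WT, while Eif2s3y of the Y chromosome averaged 63.0 and 59.8 CPM in the SMN groups and was at 0 in Bap1KO and WT. Per the labels each of 3 culture media batches held a Bap1KO and a WT library, and each of 3 others held a library of each SMN group. Batch and sex-linked expression therefore cannot be told apart from the SMN vector in any comparison that sets Smn1OE_K186R or Smn1OE against Bap1KO or WT.

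Reads counted at Smn1 dominated the picture. The 3 Smn1OE_K186R libraries held 4356, 3688 and 3777 CPM. The 3 Smn1OE libraries held 5593, 3792 and 4887 CPM. Bap1KO libraries held 30.5, 35.1 and 33.0 CPM, and WT libraries 34.8, 34.3 and 31.6 CPM. All 6 SMN libraries lay far above all 6 others, while the libraries within each pair of groups (the SMN groups, and Bap1KO with WT) overlapped. Smn1 reads took 0.384 to 0.446% of all counts in Smn1OE_K186R and 0.389 to 0.581% in Smn1OE, against 0.00302 to 0.00344% in Bap1KO and 0.00299 to 0.0034% in WT. Against Bap1KO, Smn1 was 120-fold higher in Smn1OE_K186R (adjusted p = 2.39e-10) and 145-fold higher in Smn1OE (adjusted p = 1.73e-10), by edgeR's quasi-likelihood test with Benjamini-Hochberg adjustment over all 16597 genes. The construct was human, and human reads that align to the mouse gene are counted with mouse Smn1 transcripts. The counts thus show that the vector groups carried SMN sequence, not the level of mouse Smn1 in them. In Bap1KO against WT, Smn1 had a log2 fold change of -0.03 ± 0.128 (SE, adjusted p = 0.915).

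**Figure D1:**
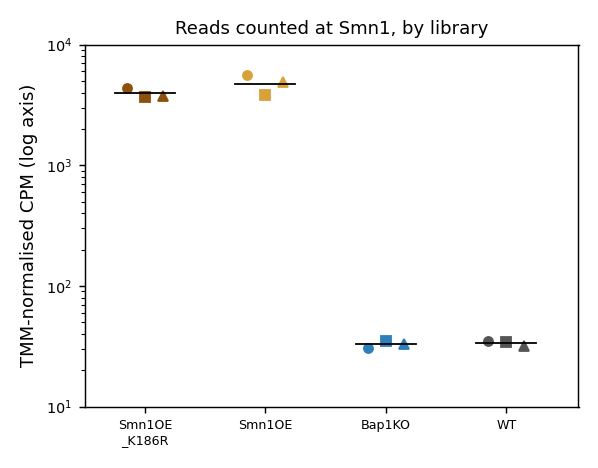
Reads counted at Smn1 in each library, in TMM-normalised CPM on a log axis. Each point is a library (circle, square and triangle for replicates 1, 2 and 3) and each bar is the mean of 3. The 6 libraries with an SMN vector lie between 3688 and 5593 CPM and the others between 30.5 and 35.1 CPM.

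Gemin2, the partner that holds the Sm ring with SMN, was lowest where the SMN vector was present. It stood at 5.73, 6.08 and 6.01 CPM in Smn1OE_K186R and at 5.77, 6.59 and 6.89 CPM in Smn1OE. It stood at 9.09, 6.57 and 8.60 CPM in Bap1KO and at 10.6, 9.003 and 9.12 CPM in WT. Every SMN library lay below every WT library, whereas Bap1KO replicate 2 lay among the Smn1OE libraries. The log2 fold change against WT was -0.69 ± 0.142 in Smn1OE_K186R (SE, adjusted p = 0.00182) and -0.58 ± 0.141 in Smn1OE (adjusted p = 0.00511). Against Bap1KO it was -0.45 ± 0.142 in Smn1OE_K186R (adjusted p = 0.0309). That call was lost without Smn1OE_K186R replicate 1 (adjusted p = 0.0783), 2 (0.0536) or 3 (0.0624) and without Bap1KO replicate 1 (0.116) or 3 (0.0922). In Smn1OE the difference from Bap1KO, -0.33, did not pass the test (adjusted p = 0.0869, or 0.0205 without Bap1KO replicate 2).

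Ddx20, the helicase of the complex, showed no called difference. It held 16.1, 17.7 and 17.8 CPM in Smn1OE_K186R, 18.2, 19.0 and 18.005 in Smn1OE, 15.8, 18.9 and 14.6 in Bap1KO and 19.1, 18.4 and 16.6 in WT. Its log2 fold changes lay between -0.14 (Bap1KO against WT) and 0.16 (Smn1OE against Bap1KO), and none passed the test in the 6 comparisons. Gemin4, its partner, had 17, 6 and 5 counts in Smn1OE_K186R, 6, 16 and 3 in Smn1OE, 2, 10 and 8 in Bap1KO and 1, 1 and 6 in WT. These are raw counts in libraries of at least 51.2 M, and the groups overlapped. In the GENCODE M21 annotation 91.3% of the exon bases of Gemin4 are shared with Glod4 on the same strand or with Fam57a and Dbil5 on the other strand. A read in such bases can be set aside as ambiguous, so the level of Gemin4 was not determined by these counts.

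Gemin5, the subunit that reads the snRNA code, was higher with the SMN vector. Smn1OE_K186R libraries held 41.5, 46.5 and 46.8 CPM and Smn1OE libraries 41.0, 44.2 and 49.0 CPM. Bap1KO libraries held 36.4, 38.7 and 34.2 CPM and WT libraries 33.9, 33.5 and 33.6 CPM. The lowest SMN library lay above the highest library without SMN, and every Bap1KO library lay above every WT library. Gemin5 rose against WT in Smn1OE_K186R (log2 fold change 0.42 ± 0.0825 SE, adjusted p = 0.00142) and in Smn1OE (0.41 ± 0.0825, adjusted p = 0.00157). Against Bap1KO it rose by 0.30 in Smn1OE_K186R (adjusted p = 0.0161) and by 0.29 in Smn1OE (adjusted p = 0.0176). The first of these was not called without Bap1KO replicate 1 (adjusted p = 0.0556) or 3 (0.0675) or Smn1OE_K186R replicate 3 (0.0545). The second was not called without Bap1KO replicate 1 (0.0552) or 3 (0.0741) or Smn1OE replicate 3 (0.0878). Bap1KO differed from WT by 0.12 (adjusted p = 0.412).

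The outer module moved in different directions gene by gene. Strap, whose protein Unrip binds Gemin7 and keeps the complex cytoplasmic, is the most abundant of these genes per length where no vector was given. It held 238, 230 and 241 CPM in Smn1OE_K186R, 245, 236 and 242 in Smn1OE, 191, 212 and 194 in Bap1KO and 184.6, 188.4 and 186.3 in WT. The SMN libraries lay above all others, and the Bap1KO libraries above the WT libraries by a narrow margin. The log2 fold change against WT was 0.34 ± 0.0626 in Smn1OE_K186R (SE, adjusted p = 0.00086) and 0.37 ± 0.0626 in Smn1OE (adjusted p = 0.000537). Against Bap1KO it was 0.25 in Smn1OE_K186R (adjusted p = 0.0112), where leaving out Bap1KO replicate 1 gave an adjusted p of 0.0662. It was 0.27 in Smn1OE (adjusted p = 0.00647), and the Smn1OE call held in all 13 alternative settings. Strap in Bap1KO differed from WT by 0.10 (adjusted p = 0.366).

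Gemin8, which bridges SMN to Gemin6 and Gemin7, went the other way. It held 3.88, 3.79 and 3.43 CPM in Smn1OE_K186R and 3.69, 4.07 and 3.45 CPM in Smn1OE. It held 5.13, 5.31 and 5.35 CPM in Bap1KO and 6.87, 5.26 and 5.18 CPM in WT. No SMN library reached the lowest of the others, whereas Bap1KO and WT overlapped. Gemin8 fell against WT by 0.64 on the log2 scale in Smn1OE_K186R (adjusted p = 0.00354) and by 0.63 in Smn1OE (adjusted p = 0.00401). Against Bap1KO it fell by 0.51 in Smn1OE_K186R (adjusted p = 0.0214) and by 0.49 in Smn1OE (adjusted p = 0.0238). The first of these calls was lost without Bap1KO replicate 3 (adjusted p = 0.0571) or Smn1OE_K186R replicate 3 (0.0656). The second was lost when Smn1OE replicate 1 (0.066) or 3 (0.0869) or Bap1KO replicate 1 (0.0506) or 3 (0.0629) was left out. Gemin8 lies on chromosome X, as the only X-linked gene of the 10, and Xist was near 0 in the SMN groups and at 252 and 228 CPM in Bap1KO and WT; the part of X dosage in the Gemin8 difference was not tested.

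Gemin6 and Gemin7, small Sm-fold proteins that pair with each other, did not pass the test anywhere. Gemin6 held 9.62, 12.2 and 12.5 CPM in Smn1OE_K186R, 10.2, 12.5 and 12.4 in Smn1OE, 13.6, 13.7 and 14.7 in Bap1KO and 13.9, 11.03 and 11.6 in WT. Both SMN groups lay wholly below Bap1KO (log2 fold changes -0.30 in Smn1OE_K186R, adjusted p = 0.109, and -0.26 in Smn1OE, adjusted p = 0.149), and both overlapped WT. Gemin7 held 79.9, 69.7 and 89.8 CPM in Smn1OE_K186R, 84.1, 93.9 and 93.6 in Smn1OE, 72.6, 87.6 and 75.4 in Bap1KO and 83.0, 86.5 and 76.6 in WT. Its 6 log2 fold changes lay between -0.18 (Smn1OE_K186R against Smn1OE) and 0.20 (Smn1OE against Bap1KO), and 14.8% of its exon bases are shared with Zfp296 on the opposite strand.

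Tgs1, the cap methyltransferase, was higher with the SMN vector. Smn1OE_K186R libraries held 21.8, 29.2 and 24.6 CPM and Smn1OE libraries 24.4, 24.4 and 23.6 CPM. Bap1KO libraries held 18.8, 19.4 and 18.3 CPM and WT libraries 13.3, 15.1 and 15.6 CPM. The SMN groups lay above Bap1KO, and Bap1KO lay above WT, with no overlap at either step, while the SMN groups overlapped each other. Tgs1 rose against WT by 0.78 ± 0.106 (log2, SE) in Smn1OE_K186R (adjusted p = 0.000143) and by 0.72 ± 0.106 in Smn1OE (adjusted p = 0.000217). Against Bap1KO it rose by 0.42 ± 0.106 in Smn1OE_K186R (adjusted p = 0.0112), which held in all 13 alternative settings. Against Bap1KO it also rose by 0.36 ± 0.106 in Smn1OE (adjusted p = 0.0223), but with any library of either group left out except Bap1KO replicate 2 the adjusted p lay between 0.0517 and 0.0728. In Bap1KO against WT the log2 fold change was 0.36 ± 0.106, just outside the threshold (adjusted p = 0.0501). With the culture media batch as a block, in the 6 libraries of these groups, it was 0.38 (adjusted p = 0.0059). The adjusted p was also under 0.05 with DESeq2's size factors (0.0391), with those 6 libraries and no block (0.0418) and in DESeq2's Wald test (0.0117).

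**Figure D2:**
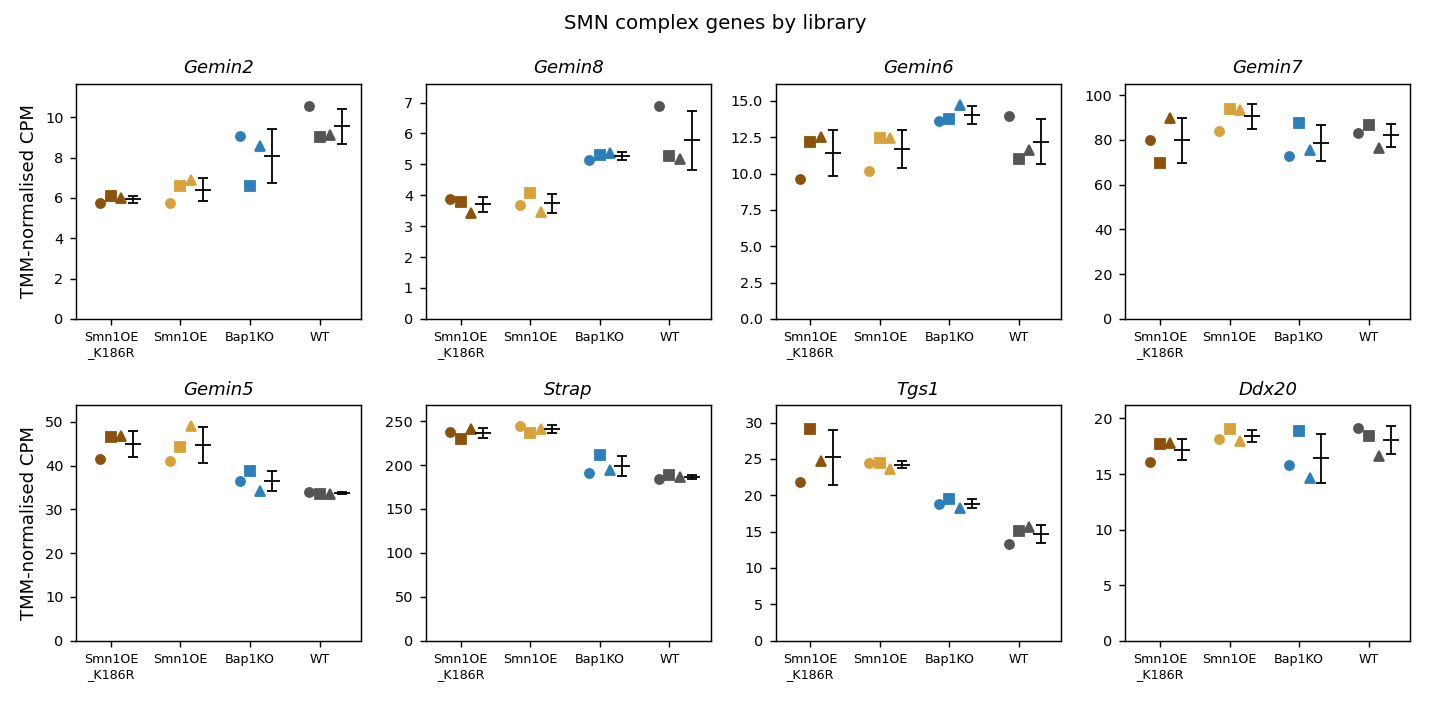
TMM-normalised CPM of 8 SMN complex genes in each library. Each point is a library (circle, square and triangle for replicates 1, 2 and 3), and the bars are the mean ± SD of 3. Both SMN groups lie below WT for Gemin2 and Gemin8 and above WT for Gemin5, Strap and Tgs1, and Ddx20 and Gemin7 overlap between the SMN groups and WT.

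The start regions of the genes that moved in opposite directions are shown as a description. RefSeq windows of 300 bases around the annotated starts (GRCm38.p6, an earlier build than that of the counts) matched 9 of the 10 genes, all but Tgs1. They were searched on both strands for the ETS core letters CCGGAAG, and no other motif was searched. The letters occur in Strap and Gemin8, in the second of 2 Smn1 windows, and in 2910 of 32851 windows of the same length (8.86%). The windows printed are Strap (chr6:137734832-137735131, plus strand), Gemin8 (chrX:166170204-166170503, plus strand) and, without a match, Gemin2 (chr12:59013141-59013440, plus strand), 5′ to 3′ with the match in capitals.
Strap: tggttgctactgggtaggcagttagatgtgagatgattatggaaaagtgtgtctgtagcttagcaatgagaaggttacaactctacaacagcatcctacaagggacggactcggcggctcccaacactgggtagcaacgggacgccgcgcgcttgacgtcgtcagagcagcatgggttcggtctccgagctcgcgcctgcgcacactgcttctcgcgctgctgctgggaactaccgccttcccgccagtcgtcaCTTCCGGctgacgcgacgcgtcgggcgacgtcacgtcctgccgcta
Gemin8: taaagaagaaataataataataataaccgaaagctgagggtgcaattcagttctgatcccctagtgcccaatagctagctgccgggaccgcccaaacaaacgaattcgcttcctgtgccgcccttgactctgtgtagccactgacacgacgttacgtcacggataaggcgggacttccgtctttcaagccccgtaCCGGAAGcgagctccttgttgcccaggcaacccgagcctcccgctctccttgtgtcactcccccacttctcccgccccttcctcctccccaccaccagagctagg
Gemin2: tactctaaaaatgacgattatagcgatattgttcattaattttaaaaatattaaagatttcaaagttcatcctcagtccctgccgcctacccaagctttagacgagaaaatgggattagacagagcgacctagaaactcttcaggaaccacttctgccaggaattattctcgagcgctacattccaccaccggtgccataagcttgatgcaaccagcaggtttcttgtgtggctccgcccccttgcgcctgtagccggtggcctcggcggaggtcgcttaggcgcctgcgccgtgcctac
Strap, higher in the SMN groups, and Gemin8, lower in them, thus both carry the letters, and Gemin2, lower in them, does not carry them in this window.

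Counted over the complex, both SMN groups were compared with Bap1KO, the group given 4-OHT without a vector. Media batch and sex-linked RNA divide these groups as the vector does, so the differences cannot be assigned to the vector. In Smn1OE_K186R against Bap1KO, 6 of the 9 tested genes passed the test, against 32.6% of all genes tested. Those higher were Smn1, Gemin5, Strap and Tgs1 (16.1% of all genes were higher), and those lower were Gemin2 and Gemin8 (16.5% lower). In Smn1OE against Bap1KO, 5 of 9 passed, against 33.5% of all genes, with the same 4 genes higher (15.8% of all genes) and Gemin8 lower (17.7%). The groups did not overlap for 7 of the 9 genes in Smn1OE_K186R against Bap1KO (43.7% of all genes) and for 6 in Smn1OE against Bap1KO (48.6%). Smn1 is itself the transgene target, so its call was set by the design. Without it 5 of the other 8 genes passed in Smn1OE_K186R and 4 of 8 in Smn1OE. The median log2 fold change of these 8 genes was 0.04 in Smn1OE_K186R and 0.18 in Smn1OE, against -0.01 in each over all genes, with members on both sides of 0. With no filter on low counts Gemin2 (adjusted p = 0.0639), Gemin8 (0.0718) and Strap (0.0758) were not called in Smn1OE_K186R, nor Gemin5 (0.0504) and Gemin8 (0.0822) in Smn1OE. With only the 6 libraries compared, Gemin2 (0.0892), Gemin8 (0.0546) and Strap (0.074) were not called in Smn1OE_K186R. Both comparisons share the 3 Bap1KO libraries.

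Against WT, which also differs by 4-OHT and, per the labels, Bap1 deletion, the same 6 genes were called in both SMN groups. In Smn1OE_K186R against WT, 6 of 9 genes passed (50.5% of all genes), with Smn1, Gemin5, Strap and Tgs1 higher (24% of all genes) and Gemin2 and Gemin8 lower (26.5%). In Smn1OE against WT, 6 of 9 passed (50.4% of all genes), 4 higher (23.8%) and 2 lower (26.6%). Without Smn1, the transgene target, 5 of 8 genes passed in each SMN group. At this background, about as many genes of any kind were called as not. Each of the 12 calls, those of Smn1 included, was kept in all 13 alternative settings. The groups did not overlap for 6 of the 9 genes in either comparison (58.4% and 62.4% of all genes). Both comparisons share the WT libraries.

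Between the groups without a vector, no SMN complex gene passed the main test and Tgs1 lay at the threshold. In Bap1KO against WT, 0 of the 9 tested genes passed edgeR's test, against 9.72% of all genes (3.36% higher and 6.37% lower). Tgs1, the 1 gene with an unadjusted p under 0.05, was called by DESeq2. It was also called by edgeR with the media batch, which these groups share, as a block (adjusted p = 0.0059). Over all genes the block called 5207 in place of 1614. Log2 fold changes ran from -0.24 ± 0.141 for Gemin2 (SE, adjusted p = 0.301) to 0.36 for Tgs1, with a median of -0.03. The groups did not overlap for Gemin5, Strap and Tgs1, 3 of 9 genes, against 32.3% of all genes. Gemin6 differed by 0.20 (adjusted p = 0.368), Gemin8 by -0.13 (adjusted p = 0.609) and Gemin7 by -0.06 (adjusted p = 0.749).

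**Figure D3:**
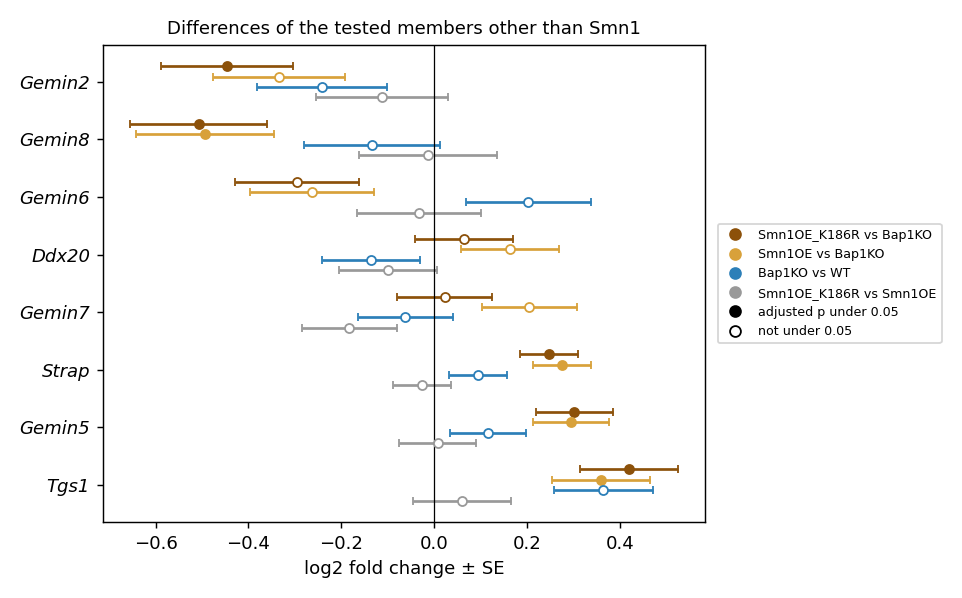
Log2 fold changes ± SE of the 8 tested members other than Smn1 in 4 comparisons, from edgeR's quasi-likelihood fit. Filled points have an adjusted p under 0.05. Gemin8 is filled to the left and Strap, Gemin5 and Tgs1 to the right against Bap1KO in both SMN groups, and no point of Bap1KO against WT or of Smn1OE_K186R against Smn1OE is filled.

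The K186R form and unmutated SMN were compared to ask whether RNA levels differed between the SMN groups. In Smn1OE_K186R against Smn1OE, 0 of the 9 genes passed, as did 0% of all 16597 genes, and 388 genes but no SMN complex gene had an unadjusted p under 0.05. DESeq2 called 0 genes as well. A block on the culture media batch, fitted to the 6 libraries compared, called 35 genes, none of them a member. Smn1 counts differed by -0.27 on the log2 scale (adjusted p = 0.997), with a 95% interval of -0.547 to 0.00327. Each interval is for a single gene, unadjusted over genes, and from the fit without the media batch that these groups share. Those of the other genes were -0.421 to 0.197 for Gemin2, -0.336 to 0.309 for Gemin8 and -0.325 to 0.259 for Gemin6. They were -0.172 to 0.186 for Gemin5, -0.163 to 0.109 for Strap and -0.169 to 0.289 for Tgs1. For Ddx20 the interval was -0.328 to 0.129 and for Gemin7 it was -0.405 to 0.0398. Ddx20 was the 1 gene of 9 whose groups did not overlap (6.78% of all genes).

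Levels were compared between genes per kilobase of merged exon length, from the GENCODE M21 models. In WT the order was Strap at 60.3 ± 0.613 CPM per kb, Gemin7 at 46.0 ± 2.80, Smn1 at 12.9 ± 0.658, Gemin6 at 8.54 ± 1.07, Gemin5 at 5.09 ± 0.0309, Ddx20 at 4.36 ± 0.311, Gemin2 at 3.96 ± 0.362, Tgs1 at 2.76 ± 0.227 and Gemin8 at 2.32 ± 0.383 (SD, n = 3). Ddx20 and Gemin2, and Tgs1 and Gemin8, lay closer to each other than the sum of their SDs. Bap1KO kept this order except that Tgs1, at 3.55 ± 0.107, stood above Gemin2, at 3.35 ± 0.553, with overlapping spreads. In both SMN groups Smn1 came first, at 1520 ± 139.9 CPM per kb in Smn1OE_K186R and 1835 ± 350 in Smn1OE. Tgs1 there stood above Gemin2 by more than the sum of their SDs, at 4.74 ± 0.701 against 2.46 ± 0.0761 in Smn1OE_K186R and 4.55 ± 0.0910 against 2.66 ± 0.240 in Smn1OE. These orders assume that each gene is read over its full exon length, which for Smn1 in the vector groups does not hold if the construct is a coding sequence.

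**Figure D4:**
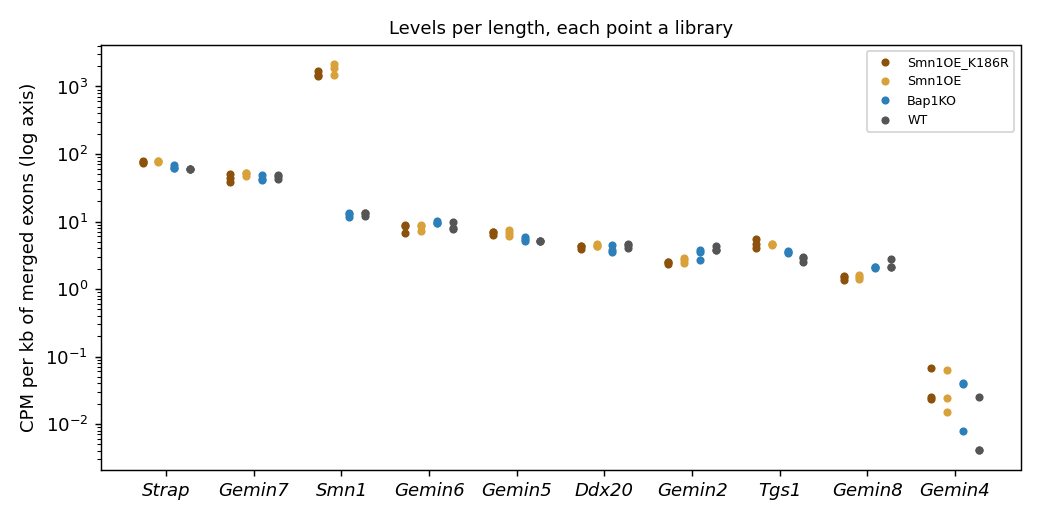
CPM per kilobase of merged exons of the 10 genes on a log axis, each point a library, coloured by group and with the genes ordered by their mean in WT. Strap and Gemin7 lead where no vector was given, Smn1 lies above every other gene in the SMN groups, and Gemin4 lies lowest in all 12 libraries.

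The genes whose log2 CPM followed that of Smn1 most closely over the 12 libraries were Gm29650 (Pearson r = 0.999), Eif2s3y (0.999), Kdm5d (0.998), Uty (0.998) and Ddx3y (0.996), among 12456 genes with a mean of at least 1 CPM. All 5 lie on the Y chromosome, had reads in the SMN groups and stand for the same division of the libraries into those with and without the vector. With the group means removed, the closest were Trim26 (r = 0.938), Foxq1 (0.932), Nuak2 (0.922), Rnf40 (0.919) and Slc7a11 (0.918) over the 12 libraries, which share groups and batches. These values are descriptions with no test.

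Among the substrates of the complex, 10 Sm and Lsm core protein genes were measured and moved little. In the SMN groups against Bap1KO, in Bap1KO against WT and in Smn1OE_K186R against Smn1OE, 0 of 10 passed edgeR's test. Among all genes 32.6% passed in Smn1OE_K186R against Bap1KO, 33.5% in Smn1OE against Bap1KO, 9.72% in Bap1KO against WT and 0% between the SMN groups. In each of these comparisons 0 of the 10 had an unadjusted p under 0.05 and DESeq2 called 0. The media batch as a block called 1, higher, in Bap1KO against WT, where it called 5207 of all genes in place of 1614. In Smn1OE_K186R against WT 2 of 10 were lower, and in Smn1OE 1 was (26.5% and 26.6% of all genes). Of the 10, 3 had an unadjusted p under 0.05 in Smn1OE_K186R against WT, and DESeq2 called 1. There limma's voom fit with the media batch as a random block called 3, all lower. The matching counts in Smn1OE against WT were 1, 0 and 0. Snrpf, a ring protein, fell against WT in Smn1OE_K186R (57.7 ± 9.66 against 77.5 ± 10.3 CPM, log2 fold change -0.43, adjusted p = 0.0172) and in Smn1OE (61.2 ± 2.25 CPM, -0.34, adjusted p = 0.0462). The Snrpf call in Smn1OE_K186R was lost without Smn1OE_K186R replicate 2 (adjusted p = 0.0581) or WT replicate 1 (0.0731). Snrpf in Smn1OE was not called without any of the 3 Smn1OE libraries or without WT replicate 1 or 2 (adjusted p 0.073 to 0.165), nor with DESeq2's size factors (0.0732), in DESeq2's test (0.0696) or in limma's voom fit with the media batch as a random block (0.0673). Snrpd2, another ring protein, fell in Smn1OE_K186R against WT (-0.37, adjusted p = 0.0452), and its adjusted p was 0.14 without Smn1OE_K186R replicate 2, 0.0713 without replicate 1, and 0.115 or 0.116 without WT replicate 1 or 2. It was also not called with DESeq2's size factors (0.0693), in DESeq2's test (0.0606) or with only the 6 libraries compared (0.101). The median of the 10 was -0.18 in Smn1OE_K186R and -0.11 in Smn1OE against WT, where all genes had a median of -0.02. Between the SMN groups the log2 fold changes of all 10 were negative, from -0.16 to -0.01, none with an adjusted p under 0.05.

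Of 16 genes for methylation of the Sm proteins, RNA export and import, and Cajal bodies, those of the cap-binding complex and the import receptor were higher with the vector. Against WT, 5 were higher and 2 lower in Smn1OE_K186R, where 24% of all genes were higher and 26.5% lower. In Smn1OE 6 were higher and 2 lower, where 23.8% of all genes were higher and 26.6% lower. These counts, 7 and 8 of 16, are near the background of 50.5% and 50.4% of all genes called. The median log2 fold change of the 16 was -0.0041 in Smn1OE_K186R and 0.08 in Smn1OE, beside -0.02 over all genes. Ncbp1, the large cap-binding subunit, averaged 96.9 ± 3.02 CPM in Smn1OE_K186R, 98.1 ± 3.87 in Smn1OE, 80.3 ± 2.10 in Bap1KO and 72.6 ± 0.725 in WT (SD, n = 3). Its log2 fold change against WT was 0.42 in Smn1OE_K186R (adjusted p = 0.000194) and 0.43 in Smn1OE (adjusted p = 0.000143). Kpnb1, importin beta, averaged 720.4 ± 26.3, 710.8 ± 7.38, 602 ± 16.6 and 533 ± 21.8 CPM in the same order of groups, with 0.43 in Smn1OE_K186R (adjusted p = 0.000239) and 0.41 in Smn1OE (adjusted p = 0.000317) against WT. Ncbp2, the small cap-binding subunit, also rose against WT in Smn1OE_K186R (0.34, adjusted p = 0.00254) and in Smn1OE (0.42, adjusted p = 0.000652). Coprs, a cofactor of the Sm protein methyltransferase Prmt5, fell in Smn1OE_K186R against WT (-0.57, adjusted p = 0.00289). Nolc1, a nucleolar and Cajal body protein, rose in Smn1OE against WT (0.37, adjusted p = 0.00686). Against Bap1KO 2 of 16 were called in Smn1OE_K186R and 3 in Smn1OE, all higher, beside 32.6% and 33.5% of all genes called. They were Ncbp1 (0.27, adjusted p = 0.00588) and Kpnb1 (0.26, adjusted p = 0.0104) in Smn1OE_K186R. They were Ncbp1 (0.29, adjusted p = 0.004), Kpnb1 (0.24, adjusted p = 0.0145) and Ncbp2 (0.27, adjusted p = 0.0152) in Smn1OE. Kpnb1 was not called without Bap1KO replicate 1 in Smn1OE_K186R (adjusted p = 0.054) or Smn1OE (0.0653), nor Ncbp2 in Smn1OE without Bap1KO replicate 1 (0.0529) or 3 (0.0718) or Smn1OE replicate 3 (0.0565). With no filter on low counts Kpnb1 (0.0642 in Smn1OE_K186R and 0.0909 in Smn1OE) and Ncbp2 (0.0503 in Smn1OE) were not called, and Kpnb1 was not called in Smn1OE_K186R with only the 6 libraries compared (0.0659). In Bap1KO against WT 0 of the 16 passed edgeR's test, beside 9.72% of all genes. There 6 had an unadjusted p under 0.05, and DESeq2 called 4 of the 16 and 2614 of all genes. With the media batch as a block, under which 5207 genes were called in place of 1614, 5 of the 16 were higher and 2 lower. Between the SMN groups 0 of 16 passed edgeR's test, DESeq2's test or the block, and 0 had an unadjusted p under 0.05.

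Of 16 partners and modifiers of SMN, most that passed the test were higher with the vector. Against Bap1KO, 7 were higher and 0 lower in each SMN group. Of all genes 16.1% were higher and 16.5% lower in Smn1OE_K186R, and 15.8% and 17.7% in Smn1OE. The 16 had a median log2 fold change of 0.25 in each, beside -0.01 over all genes. Ppp4r2, a phosphatase subunit bound to the complex, averaged 84.6 ± 8.10 CPM in Smn1OE_K186R, 78.4 ± 1.8 in Smn1OE, 62.0 ± 1.72 in Bap1KO and 52.4 ± 3 in WT. Its log2 fold change against Bap1KO was 0.45 in Smn1OE_K186R (adjusted p = 0.0018) and 0.34 in Smn1OE (adjusted p = 0.00622). Usp9x, a deubiquitinase of SMN, rose by 0.88 in Smn1OE_K186R (adjusted p = 0.0059) and by 0.60 in Smn1OE (adjusted p = 0.0322). Pls3, an actin bundler that is a known modifier of spinal muscular atrophy, rose by 0.40 in Smn1OE (adjusted p = 0.0235). The Usp9x call in Smn1OE was lost without Bap1KO replicate 1 (adjusted p = 0.102) or 2 (0.0852) or any of the 3 Smn1OE libraries (0.0502 to 0.105). The Pls3 call there was lost without Bap1KO replicate 1 (0.0943) or 3 (0.0839) or any Smn1OE library (0.0512 to 0.0677). Usp9x and Pls3 lie on the X chromosome, with the Xist values given for Gemin8, and the part of that in their differences was not tested.

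Against WT, 10 of these 16 were higher and 1 lower in Smn1OE_K186R, and 9 were higher and 0 lower in Smn1OE. Of all genes 24% were higher and 26.5% lower in Smn1OE_K186R, and 23.8% and 26.6% in Smn1OE. The median was 0.30 in Smn1OE_K186R and 0.33 in Smn1OE, beside -0.02 over all genes. Ppp4r2 rose by 0.69 on the log2 scale in Smn1OE_K186R (adjusted p = 4.28e-05) and 0.58 in Smn1OE (adjusted p = 0.000114). Pls3 rose by 0.73 in Smn1OE_K186R (adjusted p = 0.000434) and by 0.63 in Smn1OE (adjusted p = 0.00109). Pfn2, an actin-binding profilin, rose by 0.92 in Smn1OE_K186R (adjusted p = 0.000546) and by 0.84 in Smn1OE (adjusted p = 0.000946). Mib1, a ubiquitin ligase of SMN, rose in Smn1OE_K186R by 0.53 (adjusted p = 0.000618), and Coro1c, an actin-binding partner of Pls3, rose in Smn1OE by 0.34 (adjusted p = 0.0043). In Bap1KO against WT the 1 gene called (9.72% of all genes were called) was Ncald, a calcium sensor, at 0.604 against 1.4 CPM (-1.22, adjusted p = 0.0439), and leaving out any library of either group gave an adjusted p of 0.0576 to 0.133, as did fitting only these groups (0.0764). With the media batch as a block, 6 of the 16 were higher and 1 lower in Bap1KO against WT. Over all genes the block called 5207 there in place of 1614. Between the SMN groups 0 of 16 passed edgeR's test, DESeq2's test or the block, and 1 had an unadjusted p under 0.05. The pathway lists share their control libraries with the complex.

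**Figure D5:**
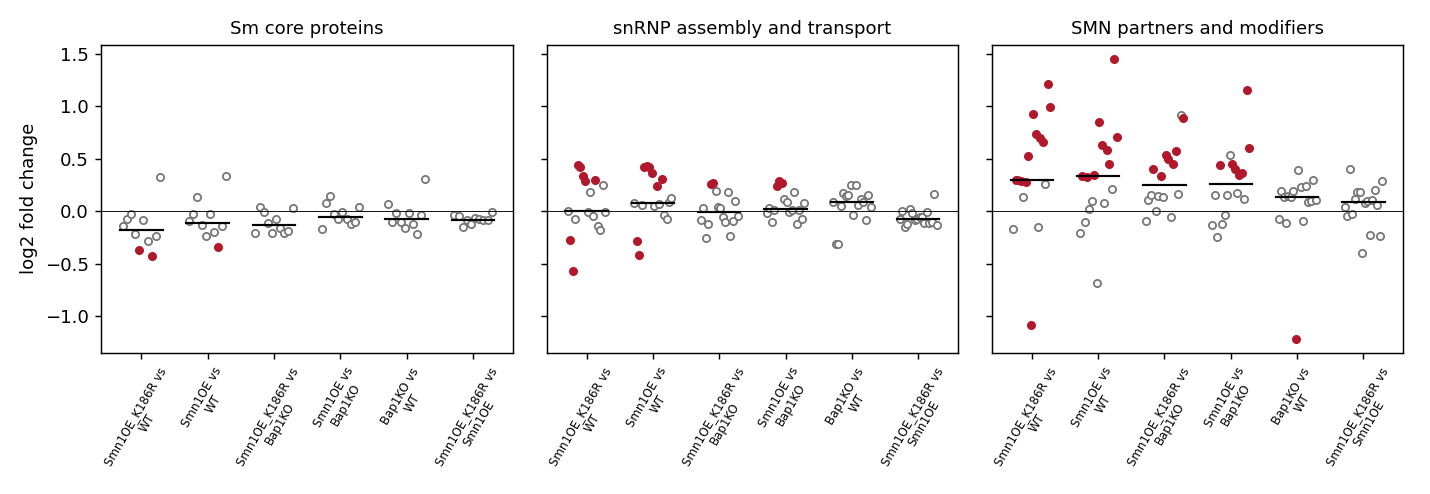
Log2 fold changes of the 10 Sm core, 16 assembly and transport, and 16 partner and modifier genes in the 6 comparisons. Each point is a gene, filled red where the adjusted p was under 0.05, and each bar is the median of the list. The partner and modifier list holds 10 higher and 1 lower filled points in Smn1OE_K186R against WT, and no list holds a filled point in Smn1OE_K186R against Smn1OE.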

How the data were processed

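RNA from cultured mouse limb muscle FAPs was extracted with TRIzol and sequenced as paired-end TruSeq libraries on an Illumina instrument, per the labels' protocols. The authors deposited raw read counts per Ensembl gene ID, 1 table per library, with no normalization. Per the submitters' processing notes reads were handled with STAR 2.6.1, HTSeq 0.9.1, cutadapt 1.4.2, CASAVA 1.8.2 and DESeq2 (genome build GRCm39). The annotation release and the strand setting are not given in the sources used here, so counts of overlapping genes are uncertain. GENCODE M21, made for an earlier build and used here for names, chromosomes and exon lengths, matched 55154 of 55335 gene IDs. Closing rows that name no gene took on average 13.7% of records in Smn1OE_K186R, 14.2% in Smn1OE, 11.8% in Bap1KO and 11.6% in WT, and were left out.

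Totals averaged 60.97 ± 7.8 M (1e6) counts in Smn1OE_K186R, 60.27 ± 7.88 in Smn1OE, 64.1 ± 5.65 in Bap1KO and 67.72 ± 0.469 in WT (SD, n = 3). Library pairs of a group differed beyond counting noise, with 38.1 to 123 as the chi-square per degree of freedom. They were thus not the same library sequenced again. These values do not tell whether replicates came from separate cultures or animals. The test was that of edgeR 4.0.16 under R 4.3.3 (TMM, filterByExpr with a minimum count of 10, 4-group quasi-likelihood fit over 12 libraries, 8 residual degrees of freedom, prior count 0.125, 2-sided). A gene is called where its adjusted p (Benjamini-Hochberg over 16597 genes) is under 0.05, and the test was tried on simulated data. CPM are TMM-normalised. An exact permutation test of 3 against 3 cannot go below 0.1 and was not used.

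Libraries of the same culture media batch, a label, deviated together. The correlations of their deviations across genes were 0.311, 0.435 and 0.24 between Bap1KO and WT and 0.384, 0.302 and 0.431 between the SMN groups. Library pairs of different batches gave -0.349 to 0.0486 and -0.305 to -0.0408. The deviations are from group means, so these values are tied to those of the same batch and are not a separate check. The labels state no design formula, so the block was an alternative, along with DESeq2 1.42.0, its size factors, no filter, only the groups compared, Smn1 left out of library sizes, a prior count of 2 and leaving out each library. Across batches the block was a random effect in limma 3.58.1 (voom, correlation 0.453).

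The members and lists were chosen with earlier results of these data known. All 10 members are named. From each other list at most 4 called genes per comparison are named, by smallest adjusted p, and for Smn1 the 5 genes closest in pattern. Some genes that this rule would name are not reported here.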

Additional observations from a re-analysis of the deposited data

How the results depend on the processing

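The 12 member calls against WT were kept under every alternative run, and the calls against Bap1KO were less firm. Leaving out each library gave 6 members in Smn1OE against WT and 6 to 7 in Smn1OE_K186R. The added call can only be Gemin4, whose level these counts do not determine. With no filter it was not called there by edgeR (log2 fold change 1.79, adjusted p = 0.159). Of 83 called gene results, 47 were called in all 13 alternatives run for each. With no filter, 3 members were called in Smn1OE against Bap1KO (5 as reported) and 3 in Smn1OE_K186R against Bap1KO (6), where fitting only the 6 libraries compared also gave 3 and called 3462 genes (5416 as reported). Leaving out each library gave 2 to 6 and 3 to 6 members in these comparisons. It gave 3512 to 5627 and 3385 to 5309 genes of all those tested, and 3 to 8 and 7 to 11 other pathway genes. The cause was not tested.

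In Bap1KO against WT, DESeq2's size factors, only the groups compared, the replicate block and DESeq2's test each called 1 member, Tgs1. The block called 5207 genes and DESeq2 2614, against 1614, and 535 to 1457 with a library left out. Other pathway genes called were 2 with DESeq2's size factors or no filter, 15 with the block and 6 with DESeq2, against 1, and 0 to 1 with a library left out. Between the SMN groups the block called 35 genes against 0. In both comparisons it was fitted to the 6 libraries compared, which changes the libraries as well. The block changed no other member call. Snrpf in Smn1OE against WT was not called by limma's voom fit with a random block, which changes the tool as well, nor by DESeq2 with no block (adjusted p = 0.0673 and 0.0696).

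Log2 fold changes that changed sign when a library was left out were all of uncalled results. Ranges with a library left out, in Smn1OE_K186R against Smn1OE, were -0.052 to 0.076 for Gemin5, -0.12 to 0.077 for Gemin6, -0.069 to 0.053 for Gemin8 and -0.059 to 0.15 for Tgs1. In Smn1OE_K186R against Bap1KO they were -0.018 to 0.17 for Ddx20 and -0.075 to 0.11 for Gemin7. In Smn1OE_K186R against WT they were -0.17 to 0.014 for Gemin6 and -0.14 to 0.046 for Gemin7. In Smn1OE against WT they were -0.021 to 0.067 for Ddx20 and -0.13 to 0.043 for Gemin6. In Bap1KO against WT they were -0.081 to 0.031 for Smn1, -0.15 to 0.00030 for Gemin7 and -0.20 to 0.0097 for Gemin8. Counts per library were lowest for Gemin4 (1 to 17) and next for Gemin8 (182 to 452), where counting error is largest.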
